A study of Mus musculus with 12 samples.

Results

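The genes described here encode the extracellular and membrane components of Wnt signalling, with a small set of its intracellular readouts, in the left ventricle of adult mice in which Nkx2-5 had been deleted from embryonic trabecular myocardium. They were taken by name: all probes, manufacturer's controls aside, whose gene name begins with Wnt, Fzd, Sfrp, Dkk or Rspo, and those for Lrp5, Lrp6, Axin1, Axin2, Wif1, Lef1, Tcf7 and Frzb. The rule itself uses no measured value, but the genes were chosen with earlier results of these data known. It found 61 probes for 50 genes among the 55681 probes of the array, and 26 of the 50 genes passed the background filter, against 18021 gene names in all. The name rule also takes in Dkkl1, which shares the Dkk prefix.

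RNA came from the left ventricular wall with the apex and without the septum, from 12 mice aged 6 months, and each of 12 one-colour Agilent arrays held 1 sample. The 4 TrbE10 hearts (Nkx2-5Δtrab in the labels) came from pregnancies given tamoxifen on E10.5 and again on E11.5, and the 4 TrbE14 hearts (Nkx2-5Δcomp) from pregnancies given it on E13.5 and again on E14.5. All 3 groups share the floxed Nkx2-5-ΔNeo alleles. The mutants also carry Cx40-creERT2, a tamoxifen-inducible Cre expressed from the Connexin 40 gene (Gja5) and active in embryonic trabecular myocardium, so that cells outside this lineage keep Nkx2-5. The 4 controls are described in the study's methods as littermates with both normal Cx40 copies, whereas their labels say that they had no injection. The methods state that pups were delivered by caesarean section after tamoxifen and fostered to CD1 females.

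Values are log2 signals after quantile normalization, so that a difference of 1 is a doubling, and a gene is given by its filtered probe with the highest mean signal. A called gene is one with a probe whose limma p, adjusted by Benjamini and Hochberg over the 24593 filtered probes, was under 0.05. With 4 arrays against 4, an exact two-sided permutation test over the 70 label orders cannot go below p = 0.0286, and precision is limited by how few arrays there are. The TrbE10 arrays were on a slide of their own, and the TrbE14 arrays shared theirs with the controls. Slide and TrbE10 thus cannot be told apart, whereas TrbE14 and control were compared within a slide. Males, by the Y-linked gene Ddx3y, made up 1 of the 4 control hearts, 2 of the TrbE10 and 3 of the TrbE14 hearts. Nkx2-5 itself (probe at chr17:26975621-26975680, mm9) lay between 11.89 and 12.23 in control hearts, between 11.21 and 11.67 in TrbE10 and between 11.12 and 11.63 in TrbE14. It was lower by limma in TrbE10 (log2 change -0.66, adjusted p = 0.0459) and had a log2 change of -0.59 in TrbE14 hearts (adjusted p = 0.106), with no array of either mutant reaching the control range. The Nkx2-5 probe reports on the whole tissue, and whether it lies inside the deleted part of the gene is not given in the sources used here.

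Wnt ligands are secreted lipid-modified proteins that bind frizzled receptors together with the co-receptors Lrp5 and Lrp6, which stabilizes β-catenin and lets it act with Tcf and Lef factors on target genes such as Axin2. Secreted frizzled-related proteins (Sfrp), Frzb and Wif1 bind Wnt ligands outside the cell, Dickkopf proteins such as Dkk1 act on the Lrp co-receptors, and R-spondins raise receptor levels at the membrane. In the heart the pathway is known for its part in cardiac development and in the response of fibroblasts to injury.

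The promoters of 4 genes are shown. They are Sfrp2 and Fzd7, whose 8 mutant arrays lay above all control arrays, Dkkl1, whose mutant arrays lay below them, and Wnt11. Wnt11 was not called in either mutant, but its TrbE10 arrays lay above all control arrays. Each run holds the 250 bases before the transcription start, 5′ to 3′ on the gene's strand, from RefSeq (GRCm38.p6), at chr3:83766071-83766320 (plus strand) for Sfrp2, chr1:59481897-59482146 (plus) for Fzd7, chr7:45211884-45212133 (minus) for Dkkl1 and chr7:98834862-98835111 (plus) for Wnt11. Capitals mark matches on either strand to TNAAGTG, a form of the Nkx2-5 binding motif, or to CTTTGAT, a form of the Tcf/Lef motif, which do not overlap each other here.
Sfrp2: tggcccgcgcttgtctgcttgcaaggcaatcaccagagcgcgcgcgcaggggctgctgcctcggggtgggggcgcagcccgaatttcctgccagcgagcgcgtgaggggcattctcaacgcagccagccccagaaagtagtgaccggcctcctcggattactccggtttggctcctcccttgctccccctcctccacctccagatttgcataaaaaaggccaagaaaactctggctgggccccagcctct
Fzd7: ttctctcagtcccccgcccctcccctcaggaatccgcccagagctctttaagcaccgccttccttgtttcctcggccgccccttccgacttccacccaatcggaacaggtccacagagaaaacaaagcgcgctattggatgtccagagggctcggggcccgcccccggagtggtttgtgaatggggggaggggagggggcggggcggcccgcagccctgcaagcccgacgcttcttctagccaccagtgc
Dkkl1: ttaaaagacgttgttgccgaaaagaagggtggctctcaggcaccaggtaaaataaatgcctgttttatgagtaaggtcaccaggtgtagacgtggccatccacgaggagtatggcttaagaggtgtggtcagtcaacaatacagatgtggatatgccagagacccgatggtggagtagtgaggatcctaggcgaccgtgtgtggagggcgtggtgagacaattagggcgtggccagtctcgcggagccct
Wnt11: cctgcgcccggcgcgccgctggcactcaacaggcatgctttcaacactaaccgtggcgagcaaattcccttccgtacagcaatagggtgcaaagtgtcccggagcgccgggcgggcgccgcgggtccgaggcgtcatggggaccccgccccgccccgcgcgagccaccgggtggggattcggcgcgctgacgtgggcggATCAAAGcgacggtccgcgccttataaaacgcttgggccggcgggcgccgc
The promoters of Sfrp2, Fzd7 and Dkkl1 held neither run of letters in this window. The Wnt11 run held 1 match to the Tcf/Lef form on the opposite strand. A second Wnt11 promoter (chr7:98838595-98838844, plus) held neither, and the run shown was taken because it held more matches. In the same 250 bases of all 32851 promoters in the table, 10.1% held TNAAGTG and 3.21% held CTTTGAT. The table has promoters for 33 of the 50 genes, 40 promoters in all, of which 2 held TNAAGTG (Sfrp5 and Wnt8b) and 2 held CTTTGAT (Wnt11 and Wnt5b). G and C made up 63.6% of the Sfrp2 run, 65.2% of the Fzd7 run and 52.4% of the Dkkl1 run, beside a median of 52.4% over all promoters. Promoters of Sfrp1 and Dkk3, both called in TrbE10 hearts, were not among them and were not used here.

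The adult left ventricle gave signal for few Wnt ligands and for most receptors. Of 19 Wnt ligand genes, 7 passed the filter: Wnt1, Wnt4, Wnt5a, Wnt5b, Wnt9a, Wnt9b and Wnt11. Of 12 frizzled and Lrp receptor genes, 9 passed, the exceptions being Fzd3, Fzd5 and Fzd10. Of 11 inhibitor genes, 8 passed, and Dkk1, Dkk2 and Dkk4 stayed at background throughout. Among the 4 R-spondins Rspo1 alone passed, and among Axin1, Axin2, Lef1 and Tcf7 Axin1 alone did.

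**Figure D1:**
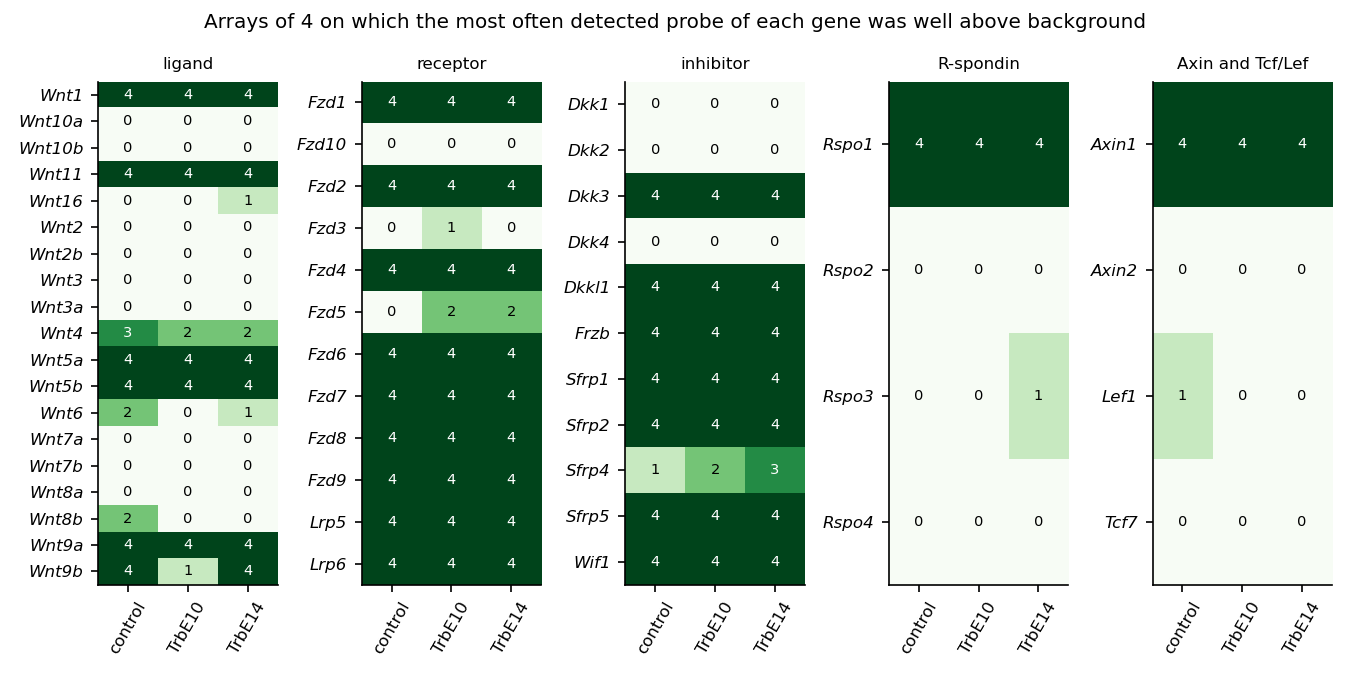
Number of arrays, of 4 in each group, on which the most often detected probe of each of the 50 genes was well above background, with genes in rows and groups in columns. The ligand Wnt3a and the pathway target Axin2 are at 0 in every group, while 23 genes are at 4 in all 3 groups.

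Over all 50 genes, 17 stayed at background on every array and 7 more were above it on too few arrays to pass, whereas 23 were above it on all 12 arrays. Axin2, a direct target of β-catenin that also limits the pathway, has 2 probes, and neither was well above background on any of the 12 arrays. The signals of its brighter probe were 3.75, 4.00, 3.73 and 2.61 in control, 4.61, 4.77, 3.73 and 3.76 in TrbE10 and 3.77, 2.91, 3.76 and 2.59 in TrbE14 hearts, so that no fold is given. Tcf7 was likewise below background throughout, and Lef1 was above it on 1 control array.

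Between the groups, detection differed for dim genes of several roles. Wnt9b, a ligand best known from kidney and facial development, was well above background on 4 control, 1 TrbE10 and 4 TrbE14 arrays. Wnt8b was above it on 2 control arrays and on none of the 8 mutant arrays, which bounds the control mean at at least 1.28-fold over TrbE10 and at least 1.55-fold over TrbE14, where each mutant array counts at its lowest signal well above background or, if higher, at its own signal. The control mean behind these bounds includes the 2 control arrays at background at their own signals, so that the bounds are not strict. A second Wnt8b probe was below background on every array of all groups and does not show the difference. For 1 probe of Fzd5 the bound, made in the same way, ran the other way, with 2 of 4 arrays above background in each mutant, none in control, and a mean at least 1.12-fold higher in TrbE10 and at least 1.05-fold higher in TrbE14. The second Fzd5 probe was above background on 1 control, 0 TrbE10 and 2 TrbE14 arrays, so that the probes differ. Neither Wnt8b nor Fzd5 passed the filter or entered the test. Wnt6 was above background on 2 control, 0 TrbE10 and 1 TrbE14 arrays, and Fzd3, Rspo3 and Wnt16 on 1 mutant array each. Among filtered genes, detection also differed for Wnt4 and Sfrp4, which passed through a single group, Wnt4 through control and Sfrp4 through TrbE14.

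In TrbE10 hearts, 4 of the 26 filtered genes were called higher than control (Sfrp2, Dkk3, Sfrp1 and Fzd7) and 1 was called lower (Dkkl1). These 5 genes are 19.2% of the 26, beside 2.15% of all genes tested, 1.36% being called higher and 0.788% lower. In TrbE14 hearts Sfrp2 was called higher and Dkkl1 lower, which is 7.69% of the 26 beside 0.76% of all genes tested, with 0.583% higher and 0.178% lower. The counts moved with the test and the filter: in TrbE14 hearts SAM called 5 of the 26, a fit with sex as a covariate 4 and a test with no filter 1, and in TrbE10 hearts a fit of these 2 groups alone called 2 and a test with no filter 0. Both mutants were compared with the same 4 control arrays, so that the comparisons are not independent. The median log2 change of the 26 genes was 0.06 in TrbE10 and 0.15 in TrbE14 hearts, beside -0.02 and -0.03 over all genes tested. All calls were among the secreted inhibitors and the frizzled receptors. Leaving out single arrays changed these counts. In TrbE10 hearts no gene was called without control replicate 3, TrbE10 replicate 1 or TrbE10 replicate 3, 1 was called without control replicate 1 or 4, 2 without control replicate 2, TrbE14 replicate 2 or TrbE10 replicate 4, and 3 without any other array. In TrbE14 hearts 1 gene was called without control replicate 1, 3 or 4 or without TrbE14 replicate 1, 2 or 3, and 3 were called without TrbE10 replicate 2.

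**Figure D2:**
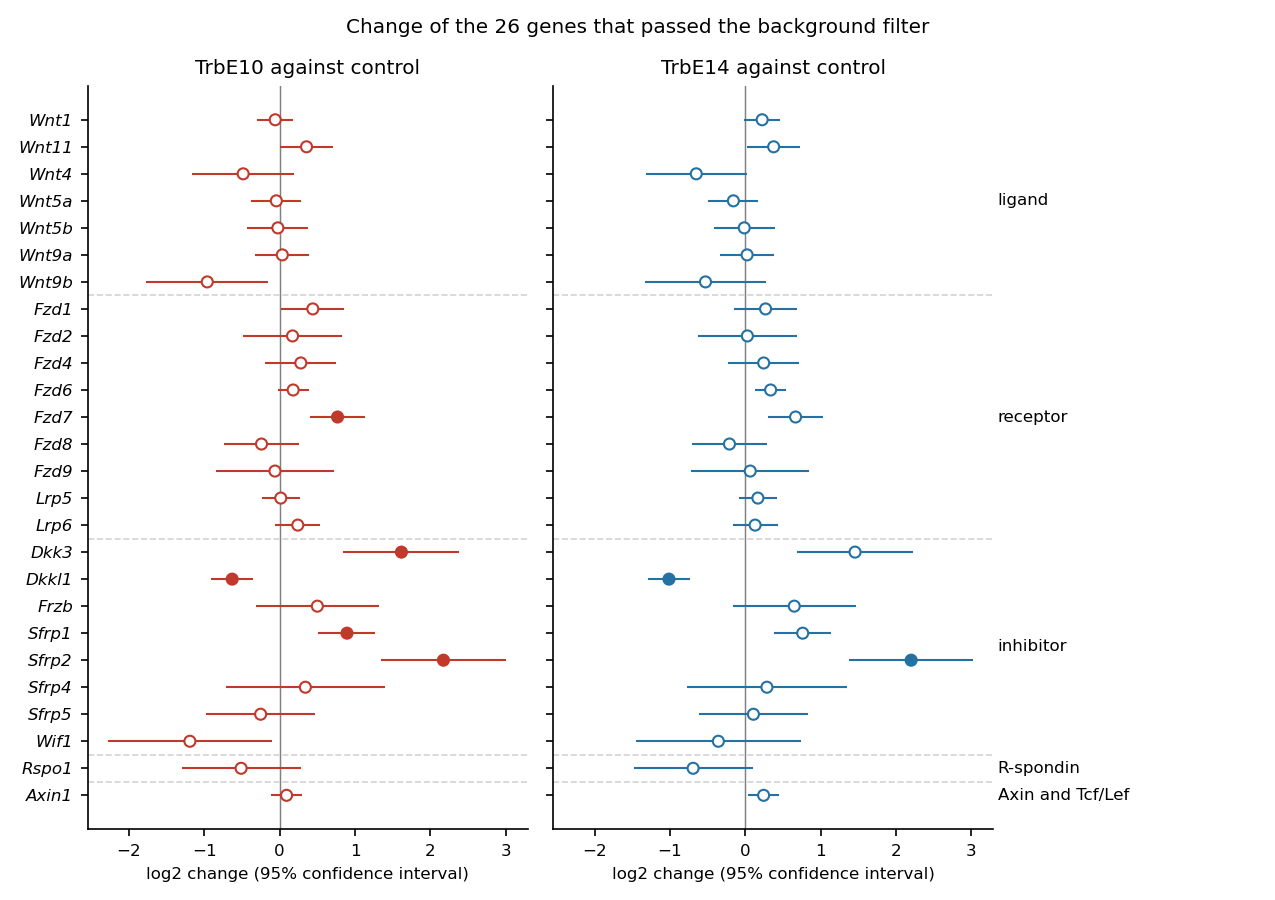
Log2 change against control of the 26 genes that passed the filter, by role, in TrbE10 (left) and TrbE14 hearts (right). Points are limma estimates, bars their 95% confidence intervals, and filled points have an adjusted p under 0.05. Sfrp2 lies at 2.17 and 2.20, and Dkkl1 is the filled point below 0 in both panels.

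Sfrp2, a secreted Wnt-binding protein made by fibroblasts and mesenchymal cells, showed the largest rise among the 26 genes in both mutants. Its signals were 7.65, 7.93, 6.86 and 7.68 in control, 9.95, 8.60, 10.46 and 9.81 in TrbE10 and 9.94, 10.23, 9.49 and 9.27 in TrbE14 hearts. All 8 mutant arrays lay above all 4 control arrays, and TrbE10 replicate 2 was the lowest of the mutant hearts. The log2 change was 2.17 ± 0.38 (SE) in TrbE10, or 4.51-fold (95% confidence interval from 2.54 to 8.0), with an adjusted p = 0.0180 by limma. In TrbE14 it was 2.20 ± 0.38 (95% confidence interval of the fold from 2.59 to 8.16), with an adjusted p = 0.0259 by limma. Without TrbE10 replicate 2 the TrbE10 change was 2.54, and with single arrays left out the call held in 8 of 12 cases in TrbE10 and in 6 of 12 in TrbE14, the adjusted p reaching 0.0550 in TrbE10 (without TrbE10 replicate 3) and 0.0762 in TrbE14 hearts (without control replicate 3). In bulk tissue, more cells of the type that makes a transcript and more of the transcript per cell cannot be told apart.

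Sfrp1, of the same subfamily as Sfrp2, had signals of 6.75, 7.12, 7.13 and 7.05 in control, 8.07, 7.35, 8.05 and 8.16 in TrbE10 and 7.92, 7.66, 7.90 and 7.62 in TrbE14 hearts. Here too the 8 mutant arrays lay above the 4 control arrays, and TrbE10 replicate 2 stood apart from the other 3 TrbE10 hearts. The change was called in TrbE10 hearts (log2 change 0.89 ± 0.17, adjusted p = 0.0280 by limma). In TrbE14 hearts it was 0.76 ± 0.17 and missed the threshold (adjusted p = 0.0843 by limma), although it passed it in a fit of these 2 groups alone (adjusted p = 0.0441) and with sex as a covariate (adjusted p = 0.0375). Without TrbE10 replicate 2 the TrbE10 change was 1.08, and the TrbE10 call held in 5 of the 12 cases with an array left out.

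Dkk3, the divergent member of the Dickkopf family, had signals of 8.12, 9.42, 8.90 and 9.18 in control, 11.24, 9.63, 10.96 and 10.25 in TrbE10 and 10.66, 10.37, 10.19 and 10.22 in TrbE14 hearts. The groups did not overlap, but the gap between the highest control heart and TrbE10 replicate 2 was narrow. This came to a log2 change of 1.62 ± 0.35 in TrbE10 hearts, or 3.07-fold (adjusted p = 0.0459 by limma). In TrbE14 hearts it was 1.46 ± 0.35, or 2.75-fold, and was not called (adjusted p = 0.106 by limma), but with sex as a covariate it was 1.91 and called (adjusted p = 0.00302). With each of the 12 arrays left out in turn, the TrbE10 change ranged from 1.36 to 1.91 and kept its call in 1 of 12 cases.

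Dkkl1, a secreted protein related to Dkk3 and best known from the testis, was the only inhibitor-class gene called lower. Its signals were 6.24, 6.18, 6.37 and 6.19 in control, 5.47, 5.52, 5.59 and 5.88 in TrbE10 and 5.11, 5.26, 5.00 and 5.55 in TrbE14 hearts. Every mutant array lay below every control array, and the control arrays were close together. Its level was 64.6% of control in TrbE10 hearts (log2 change -0.63 ± 0.13, adjusted p = 0.0359 by limma) and 49.6% of control in TrbE14 hearts (log2 change -1.01 ± 0.13, adjusted p = 0.00436 by limma). The TrbE14 call held with each of the 12 arrays left out, whereas the TrbE10 call held in 4 of the 12 cases, with an adjusted p of up to 0.101 (without control replicate 3). Under normexp background correction the log2 changes were -0.23 in TrbE10, no longer called (adjusted p = 0.112), and -0.48 in TrbE14, still called (adjusted p = 0.0183).

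**Figure D3:**
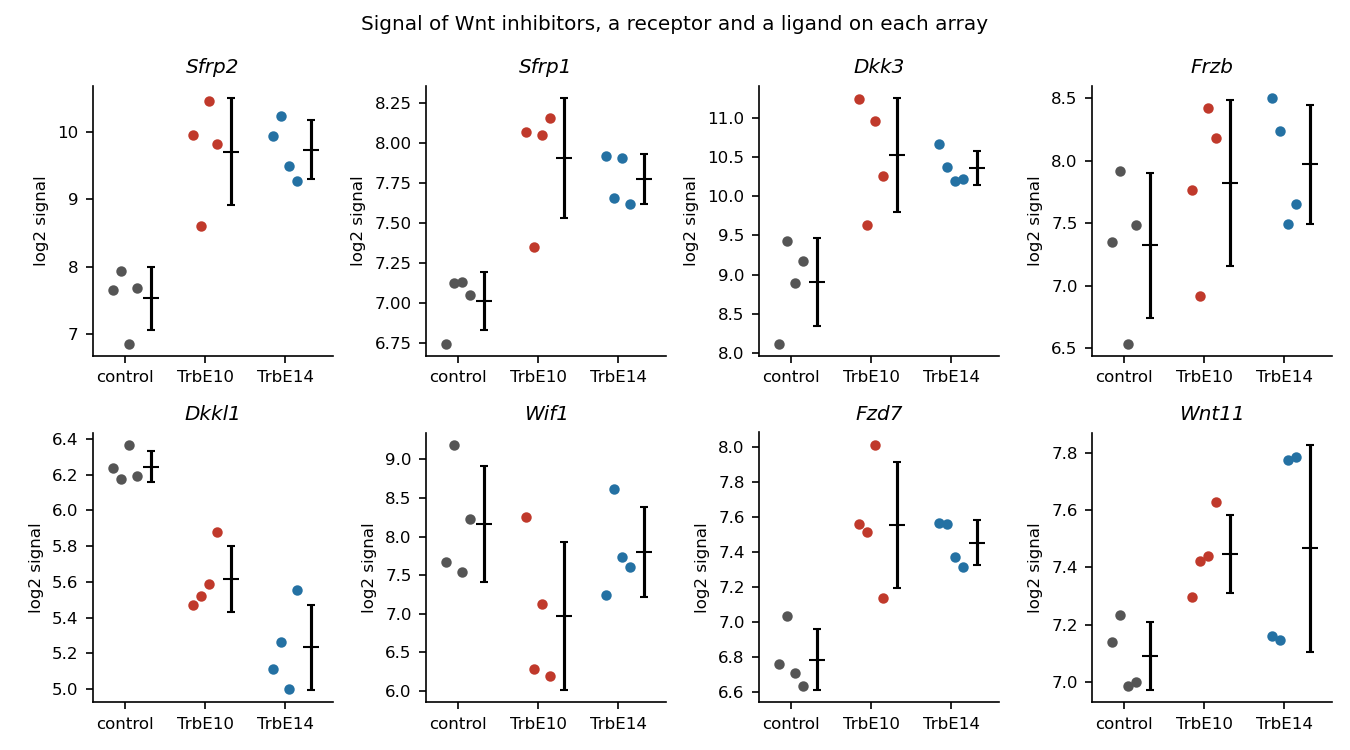
Log2 signal of 8 genes on each array (points, in replicate order within each of the 3 groups), with the group mean and SD beside them as a black bar (n = 4); vertical axes differ between panels and do not start at 0. Mutant and control arrays are fully separated for Sfrp2, Sfrp1, Dkk3, Fzd7 and Dkkl1, and overlap for Frzb and Wif1 in both mutants and for Wnt11 in TrbE14.

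The other 4 inhibitors overlapped with control and were not called. Frzb (Sfrp3) had a log2 change of 0.50 ± 0.37 in TrbE10 and 0.65 ± 0.37 in TrbE14 hearts. Wif1, which binds Wnt ligands through a domain of its own, ran the other way with the widest spread, between 7.53 and 9.19 in control, 6.19 and 8.26 in TrbE10 and 7.24 and 8.62 in TrbE14 hearts. The change was -1.19 ± 0.50 on the log2 scale in TrbE10 (adjusted p = 0.269 by limma, exact permutation p = 0.143) and -0.36 ± 0.50 in TrbE14 hearts (adjusted p = 0.766); Wif1 was picked out after its values were seen. Sfrp4 was well above background on 1 control, 2 TrbE10 and 3 TrbE14 arrays, and Sfrp5 on all 12. Their log2 changes lay between -0.25 and 0.34 in the mutants. Over the 8 inhibitors the median log2 change was 0.42 in TrbE10 and 0.47 in TrbE14 hearts.

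Among the receptors, Fzd7 was the 1 gene of 9 called. Its signals were 6.76, 7.04, 6.71 and 6.64 in control, 7.56, 7.51, 8.01 and 7.14 in TrbE10 and 7.57, 7.56, 7.37 and 7.32 in TrbE14 hearts. The mutant arrays lay above all control arrays, with TrbE10 replicate 4 nearest to them. Fzd7 thus rose by a log2 change of 0.77 ± 0.16 in TrbE10 (1.70-fold, adjusted p = 0.0428 by limma), and its change was 0.67 ± 0.16 in TrbE14 hearts (1.59-fold, adjusted p = 0.111 by limma). A second Fzd7 probe was below background on all 12 arrays, and the TrbE10 call held in 2 of the 12 cases with an array left out.

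Fzd6, a receptor known for tissue polarity, had signals of 7.92, 8.22, 8.16 and 7.86 in control, 8.18, 8.22, 8.33 and 8.16 in TrbE10 and 8.42, 8.43, 8.27 and 8.39 in TrbE14 hearts. Its TrbE14 arrays lay just above the highest control array, while TrbE10 and control overlapped. The log2 change was 0.34 ± 0.09 in TrbE14 (adjusted p = 0.170 by limma) and 0.18 ± 0.09 in TrbE10 hearts (adjusted p = 0.377). The other 7 receptors, Fzd1, Fzd2, Fzd4, Fzd8, Fzd9, Lrp5 and Lrp6, overlapped with control in both mutants. Their log2 changes ran from -0.24 for Fzd8 to 0.44 for Fzd1 in TrbE10 hearts, and from -0.21 for Fzd8 to 0.27 for Fzd1 in TrbE14 hearts. Over the 9 receptors the median log2 change was 0.18 in TrbE10 and 0.17 in TrbE14 hearts.

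No ligand was called in either mutant. Wnt11, a ligand of the β-catenin-independent branches with a known part in heart development, had signals of 7.14, 7.23, 6.99 and 7.0 in control, 7.30, 7.42, 7.44 and 7.63 in TrbE10 and 7.16, 7.14, 7.78 and 7.79 in TrbE14 hearts. TrbE10 arrays all lay above control, while 2 of the 4 TrbE14 arrays lay inside the control range and 2 well above it. The log2 change was 0.36 ± 0.16 in TrbE10 (adjusted p = 0.297 by limma) and 0.38 ± 0.16 in TrbE14 hearts (adjusted p = 0.338).

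Wnt9b had signals between 5.77 and 6.84 in control, 4.77 and 6.44 in TrbE10 and 5.34 and 6.22 in TrbE14 hearts; it was picked out after its values were seen. In TrbE10 replicates 1, 2 and 4 it lay below every control array, and replicate 3 lay inside the control range. Only 1 TrbE10 array was well above background, so that the TrbE10 value rests in part on signals at background and its size is uncertain. The measured log2 change was -0.96 ± 0.37 in TrbE10 (adjusted p = 0.231 by limma, exact permutation p = 0.114) and -0.53 ± 0.37 in TrbE14 hearts (adjusted p = 0.537). Wnt1, the founding ligand of the canonical pathway, had signals of 7.18, 7.08, 7.24 and 7.03 in control, 7.23, 6.94, 7.11 and 7.01 in TrbE10 and 7.34, 7.17, 7.64 and 7.27 in TrbE14 hearts by 1 probe, while its second probe was below background on all 12 arrays. Its log2 changes were -0.06 ± 0.11 in TrbE10 and 0.22 ± 0.11 in TrbE14 hearts, neither called. Wnt5a, Wnt5b and Wnt9a had log2 changes between -0.16 and 0.04 in the mutants. Wnt4 was well above background on 3 control, 2 TrbE10 and 2 TrbE14 arrays, and passed the filter through control, the group where it was highest. Its measured log2 changes were -0.48 ± 0.31 and -0.65 ± 0.31, neither called, with overlapping arrays and 2 of 4 arrays of each mutant at background.

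Rspo1, which strengthens Wnt signalling through Lgr receptors, had signals of 7.66, 6.81, 6.70 and 6.88 in control, 6.78, 5.79, 6.14 and 7.29 in TrbE10 and 6.23, 6.46, 5.64 and 6.95 in TrbE14 hearts. Both mutants overlapped with control, although 2 TrbE10 and 3 TrbE14 hearts lay below every control heart. The log2 changes were -0.51 ± 0.36 (adjusted p = 0.517 by limma) and -0.69 ± 0.36 (adjusted p = 0.417). Axin1, the scaffold of the complex that destroys β-catenin, had signals of 8.85, 8.83, 8.96 and 9.03 in control, 8.93, 9.06, 9.05 and 9.0 in TrbE10 and 8.94, 9.19, 9.17 and 9.35 in TrbE14 hearts. The TrbE14 arrays reached highest but overlapped with control, and the log2 changes were 0.09 ± 0.09 (adjusted p = 0.676 by limma) and 0.24 ± 0.09 (adjusted p = 0.297).

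Counted by separation alone, 5 of the 26 genes had all 4 TrbE10 arrays above all 4 control arrays and 1 had them all below, and the numbers were the same in TrbE14 hearts. Of all genes tested, 10.6% were separated in TrbE10 hearts (4.94% higher, 5.63% lower) and 10.1% in TrbE14 hearts (4.65% higher, 5.43% lower). At an unadjusted p under 0.05, 9 of the 26 genes passed in TrbE10 and 8 in TrbE14 hearts, beside 16.8% and 13.9% of all genes tested.

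The direct comparison of TrbE10 with TrbE14 asks whether the time of deletion mattered for these genes. None of the 26 was called by limma (0 of 18021 genes in all, or 0%), by SAM or under any other setting, and 2 had an unadjusted p under 0.05, beside 5.96% of all genes tested. These were Dkkl1, 0.38 higher on the log2 scale in TrbE10 than in TrbE14 (adjusted p = 0.713, exact permutation p = 0.0857), and Wnt1, 0.28 lower in TrbE10 (log2 change -0.28, adjusted p = 0.804, exact permutation p = 0.0571). For Sfrp2 the difference was -0.03, with a 95% confidence interval from -0.85 to 0.80. The TrbE10 arrays also lay on their own slide, so that any difference in either direction cannot be told apart from the slide.

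Other genes of the pathway were taken from a list of 67, of which 56 were measured. One of them, Wisp2 (Ccn5), a secreted matricellular protein named for its induction by Wnt1, was called higher in both mutants, and none was called lower. Its signals were 6.81, 7.35, 6.84 and 7.37 in control, 9.60, 9.05, 9.79 and 9.17 in TrbE10 and 8.71, 9.33, 9.14 and 9.34 in TrbE14 hearts, with a wide gap between control and mutants. Wisp2 had a log2 change of 2.31 ± 0.21 in TrbE10 (adjusted p = 3.81e-04 by limma) and 2.04 ± 0.21 in TrbE14 hearts (adjusted p = 0.00123). Over the 56 genes the median was 0.04 in TrbE10 and 0.06 in TrbE14 hearts on the log2 scale.

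By role, none of the 2 secretion genes, the 10 measured receptors and surface regulators, the 4 secreted regulators, the 14 cytoplasmic genes (β-catenin, Gsk3b and Apc among them), the 11 nuclear genes or the 8 planar polarity genes was called in either mutant. Of 7 measured transcripts that canonical signalling is known to raise, Wisp2 alone was called. The others had log2 changes between -0.05 and 0.64 in TrbE10 and between -0.36 and 1.19 in TrbE14 hearts. With Wisp2 included, 4 of the 7 were higher in TrbE10 and 6 in TrbE14 hearts. Their median log2 change was 0.52 and 0.74. Sp5 and Wisp1 from the same list, like Axin2, did not pass the filter.

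**Figure D4:**
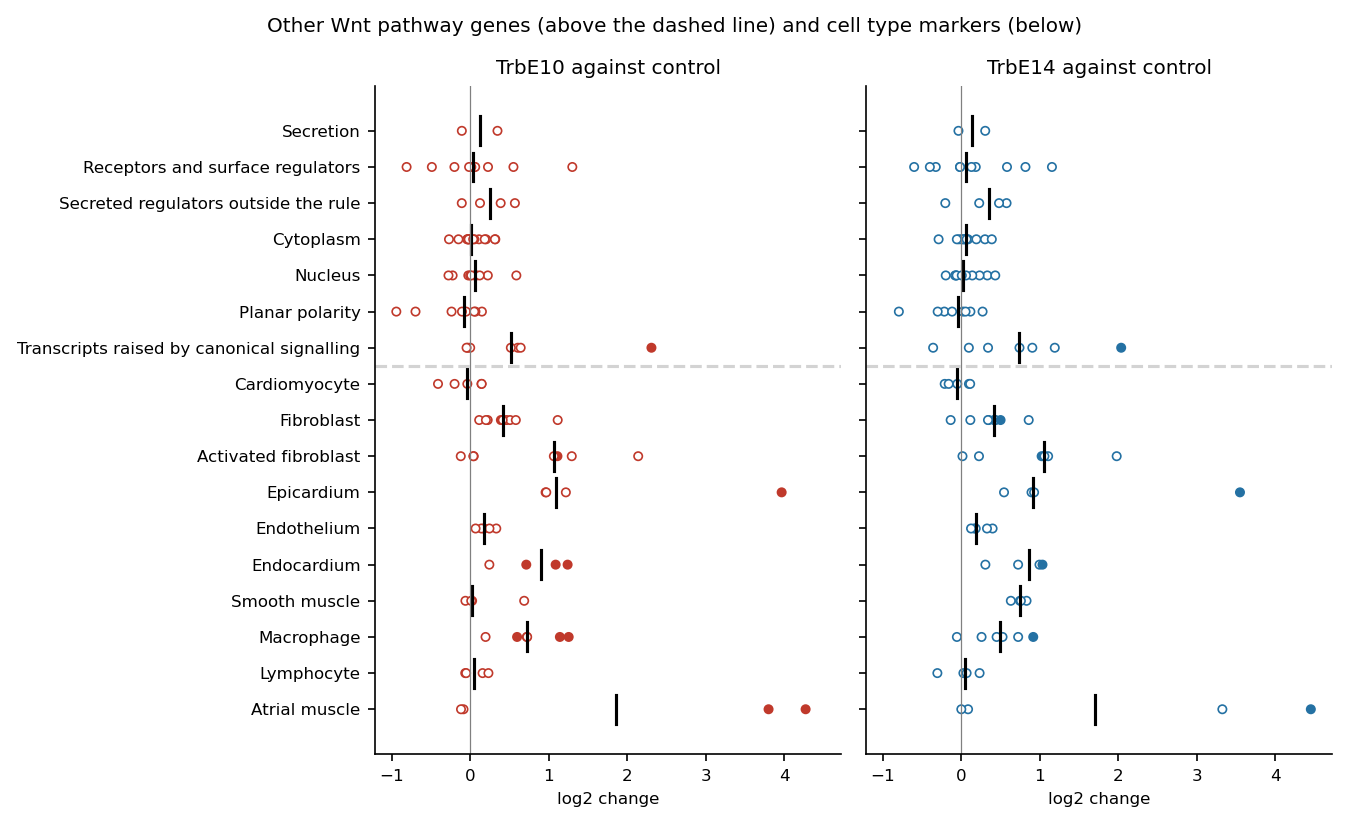
Log2 change against control of other Wnt pathway genes by role (upper rows) and of cell type markers (lower rows) in TrbE10 (left) and TrbE14 hearts (right). Each circle is a gene, filled circles have an adjusted p under 0.05, and black bars are medians. Wisp2 is the filled circle among the pathway genes, at 2.31 and 2.04.

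Several lists of cell type markers were higher in the mutants by their median log2 change. All 9 fibroblast markers were measured, and their summed linear signal was between 101204 and 109830 in control, 122489 and 144356 in TrbE10 and 131270 and 154659 in TrbE14 hearts, with a median log2 change of 0.41 and 0.42 and Dcn called in both. The 7 activated fibroblast markers summed to between 1618 and 4261 in control, 4749 and 12254 in TrbE10 and 6093 and 7164 in TrbE14 hearts, with a median log2 change of 1.07 and 1.05 and Meox1 called in both. The list was not uniform. In TrbE10 hearts the log2 change was -0.12 for Cilp, 0.04 for Fmod and 0.04 for Thbs4, and between 1.07 and 2.14 for the others. In TrbE14 hearts it was 0.22 for Cilp and 0.01 for Thbs4, and between 1.02 and 1.98 for the others. TrbE10 replicate 2, the lowest TrbE10 heart for Sfrp2, Sfrp1 and Dkk3, was also the lowest TrbE10 heart for both sums, at 122489 and 4749. This was not particular to fibroblasts. The same heart was lowest in TrbE10 for the endocardial, macrophage, epicardial and atrial muscle sums. It was not lowest for the cardiomyocyte, endothelial, smooth muscle or lymphocyte sums.

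Endocardial markers summed to between 7471 and 10615 in control, 11875 and 19412 in TrbE10 and 13731 and 17700 in TrbE14 hearts. Their median log2 change was 0.90 and 0.86, with Eng, Npr3 and Vwf called higher in TrbE10 and Vwf in TrbE14. Macrophage markers, 6 of 7 measured, summed to between 7768 and 9631 in control, 14689 and 17218 in TrbE10 and 12999 and 13813 in TrbE14 hearts. Their median log2 change was 0.72 and 0.49, with C1qa, Cd68, Csf1r and Fcgr1 called higher in TrbE10 and Csf1r in TrbE14. Fcgr1 was at background on every control array, so that the size of its change is uncertain. Epicardial markers, 4 of 6 measured, summed to between 686 and 1356 in control, 1488 and 2787 in TrbE10 and 1323 and 2089 in TrbE14 hearts, with a median log2 change of 1.09 and 0.91, Krt19 called in both mutants and Upk3b and Upk1b below the filter. In control, Krt19 was above background in replicate 1 only, so that the size of its change is uncertain too. In all 3 lists the TrbE10 sums lay above every control heart. The same held for both fibroblast lists and for the cardiomyocyte markers.

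Of the 4 atrial muscle markers, 2 lay above every control array in both mutants. The 4 together summed to between 4172 and 34681 in control, 14409 and 34766 in TrbE10 and 16807 and 33416 in TrbE14 hearts. These sums overlapped. Bmp10, a growth factor of atrial and trabecular muscle, had a log2 change of 4.27 in TrbE10 (adjusted p = 2.53e-04 by limma) and 4.45 in TrbE14 hearts (adjusted p = 2.82e-04). Its control signals, between 2.35 and 2.37, were at background on every array. Bmp10 thus passed the filter through the mutants, and the size of its change is uncertain. Sln (sarcolipin, a regulator of the calcium pump) had a log2 change of 3.80 in TrbE10 (adjusted p = 0.0177 by limma) and 3.33 in TrbE14 hearts, where it was not called (adjusted p = 0.0511). Sln varied widely in control, from 8.58 in replicate 1 to 12.48 in replicate 3, and its lowest mutant array was at 13.38. No mutant array of either gene reached the control range. Myl4 and Myl7 overlapped with control, with log2 changes between -0.12 and 0.09 in the mutants, and the median over the 4 markers was 1.86 and 1.71.

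No marker of the remaining lists was called. Cardiomyocyte markers, which identify the tissue, summed to between 646654 and 677679 in control, 687875 and 714585 in TrbE10 and 610572 and 676034 in TrbE14 hearts, with a median log2 change of -0.04 and -0.05. Median log2 changes were 0.17 and 0.18 for the 5 endothelial markers, 0.02 and 0.75 for the 4 smooth muscle markers and 0.05 and 0.05 for the 4 of 6 lymphocyte markers measured. The part of these cell types in the changes of Sfrp2, Sfrp1, Dkk3 and Fzd7 was not tested.

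Sfrp2 lies on the chromosome that carries the Cre allele. Its probe (chr3:83577864-83577923, mm9, plus strand) is 13.3 Mb from the probe for Gja5 (chr3:96857349-96857408), and the mutants, unlike the controls, carry Cx40-creERT2 and whatever linked sequence came with it. Wnt2b, 7.89 Mb from Gja5, and Lef1 and Dkk2, both over 34 Mb away, are on the same chromosome and did not pass the filter. Gja5 itself had a log2 change of -0.64 in TrbE10 (adjusted p = 0.410 by limma) and -0.47 in TrbE14 hearts (adjusted p = 0.572), with overlapping arrays.

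Of 398 genes within 15 Mb of Gja5, 14 (3.52%) were called in TrbE10 hearts, beside 2.64% on the rest of the chromosome and 2.11% on other chromosomes. In TrbE14 hearts 7 of the 398 (1.76%) were called, beside 1.22% and 0.722%. The median log2 change of the region was -0.02 in both mutants, and the part of linked sequence in the Sfrp2 change was not tested. Sfrp1, Dkk3, Fzd7 and Dkkl1 lie on chromosomes 8, 7, 1 and 7, away from the Cre allele.

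**Figure D5:**
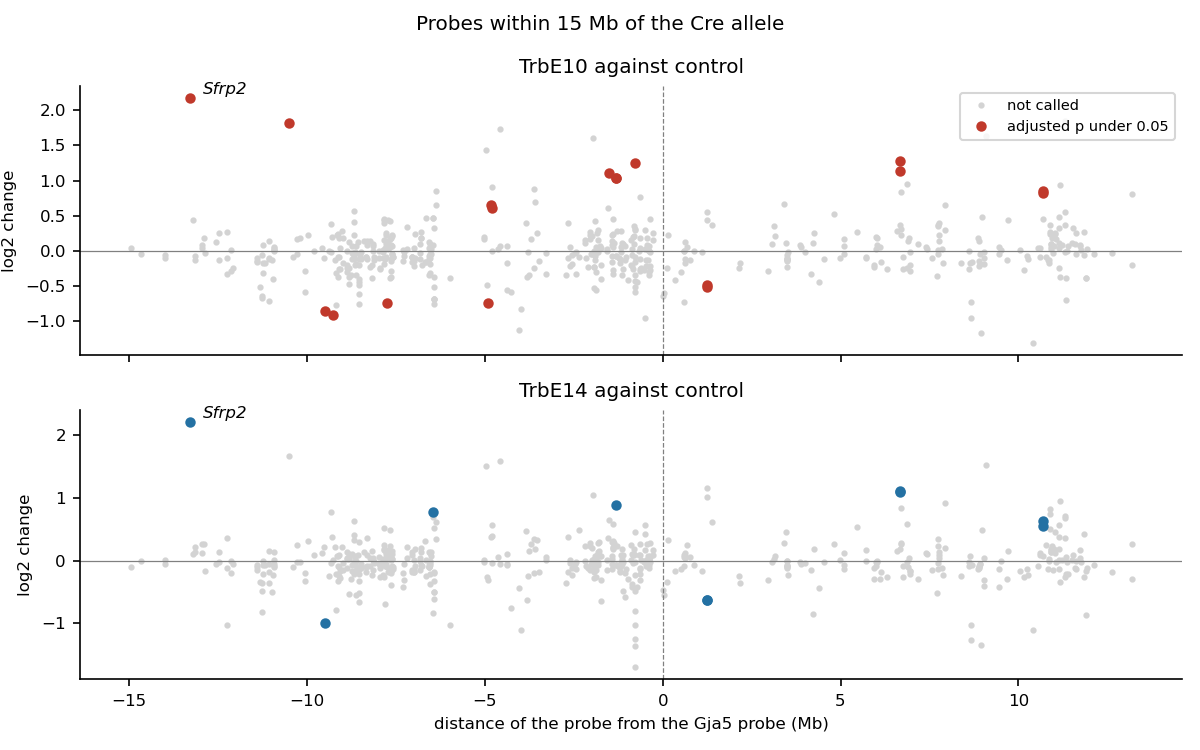
Log2 change against control of each filtered probe (points) by its distance in Mb from the Gja5 probe, up to 15 Mb either side, in TrbE10 (top) and TrbE14 hearts (bottom). Coloured points have an adjusted p under 0.05. Sfrp2, at -13.3 Mb, is the highest point in both panels, and called points are spread over the region in both directions.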

How the data were processed

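For each of the 12 arrays the authors deposited scanner output from Agilent Feature Extraction 10.5, whose processed signal is an intensity with the background subtracted. They also deposited log2 values of their own, quantile normalized and filtered on background. Here the processed intensity was taken to log2, made equal in distribution across arrays (limma 3.58.1 in R 4.3.3, with data.table (1.17.8)), and averaged over the spots of a probe, without control spots (3671 of 62976) and outlier spots. Probes well above background on 3 of the 4 arrays of any group were kept. limma was fitted to all 12 arrays with 1 mean per group, leaving 9 residual and 2.19 prior degrees of freedom, and every adjusted p comes from it with Benjamini-Hochberg adjustment. limma and SAM were tested on simulated data. Python 3.11.15 and matplotlib 3.10.9 drew the plots.

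Members, pathway genes and markers were chosen with earlier results of these data known. Values in every array are given for called members, Sfrp2, Axin2, members separated from control, and the 2 filtered members of each role with the lowest moderated F p. Probe coordinates are mm9, and exon and UTR annotation of probes was not used here. The alternatives tried were normexp (offset 50), scaling to the 75th percentile, filtering on 9 of the 12 arrays or not at all, the authors' log2 values (column medians 8.58 to 8.60), fits of 2 groups, a replicate block, SAM at 5%, a sex covariate, Dkkl1 left out, and every array left out singly.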

Additional observations from a re-analysis of the deposited data

Results flagged for a closer look

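Among the 26 filtered genes, 78 sets of 4 arrays were checked for a single array far from the other 3 by Dixon's test, and chance marks about 1 in 20 such sets. Sfrp1 in TrbE10 hearts was marked, with replicate 2 at 7.35 and the other 3 hearts between 8.05 and 8.16 (gap over range 0.868, above the 95% critical value). Wnt9b in TrbE10 hearts was marked, with replicate 3 at 6.44 and the others between 4.77 and 4.93 (0.901). No gene had the mutants on opposite sides of the control mean in every array or a called difference between the mutants.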

How the results depend on the processing

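For the 12 genes followed under each setting in both mutants, no log2 change turned its sign. The number of genes called was 5 in TrbE10 and 2 in TrbE14 hearts. With no filter, where more probes entered both the fit and the adjustment, it was 0 and 1. With only the 2 groups compared it was 2 in TrbE10. SAM called 5 in TrbE14 hearts, sex as a covariate gave 4, and without Dkkl1 there was 1. Apart from the removal of Dkkl1 itself, why the counts moved was not tested. With each array left out in turn, 0 to 3 genes were called in TrbE10, 1 to 3 in TrbE14 and 0 in the direct comparison.

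Whether the replicate numbers in the labels pair the hearts cannot be settled by correlation. Arrays of the same number correlated in their deviations from the group means between -0.242 and 0.476 (12 pairs, median -0.0487). Those of different numbers did so between -0.516 and 0.405 (36 pairs, median 0.0359). With the replicate block, 0 genes were called in TrbE10 and 1 in TrbE14 hearts, and Sfrp2 had adjusted p = 0.0589 and 0.0912. The signal over background limits Axin2, Tcf7, Lef1 and the 12 ligands below the filter, none of which entered the test.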
